A study of Rattus norvegicus with 20 samples.

Results

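Axon guidance genes encode the secreted and membrane-bound cues that steer growing axons, and the receptors with which growth cones read them. Netrins act through Dcc and the Unc5 receptors, Slits through Robo receptors, semaphorins through plexins and neuropilins, and ephrins through the Eph receptor tyrosine kinases, which also signal back into the ephrin-bearing cell. In the adult striatum many of these genes stay expressed, where they are known for roles at synapses and, for Netrin-1 and Dcc, in the mesolimbic dopamine projection.

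The genes described here were the ligands and receptors of these families whose symbols matched a fixed name pattern and that held at least 10 counts in at least 4 of the 20 libraries. The pattern found 61 symbols, and all 61 passed the count minimum and entered the statistical model, out of 17296 symbols in the table and 12846 in the model. They comprised 35 ligands, namely 19 semaphorins, 4 netrins, 2 netrin-Gs, 3 Slits, 4 ephrin-As and 3 ephrin-Bs. The 26 receptors were Dcc, 4 Unc5 receptors, 3 Robo receptors, 2 neuropilins, 5 plexins, 7 EphA and 4 EphB receptors.

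RNA came from the nucleus accumbens, a part of the ventral striatum, of male Sprague-Dawley rats that were 7 to 9 weeks old and lived 2 to a cage. Each library is 1 rat, the cage mates among them are not identified, and all rats self-administered cocaine, the controls included. The drink held nothing but water for 5 control rats (H2O), antibiotics for 4 rats (Abx), fatty acids of short chain length for 6 rats (SCFA) and both additions for 5 rats (Abx_SCFA).

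Libraries held between 17525358 and 25731636 counts, of which the 61 genes took between 0.306% and 0.35%. The labelled tissue was checked against marker lists. All 15 listed markers of medium spiny neurons, the principal striatal cell, were in the table, and they summed to 8627 to 11503 CPM (counts scaled to a common library size) in H2O, 7986 to 11494 in Abx, 5023 to 11027 in SCFA and 9142 to 10622 in Abx_SCFA. Of 13 markers of cortical excitatory neurons 12 were in the table, and they summed to 160 to 501 CPM in H2O, 218 to 868 in Abx, 242 to 1745 in SCFA and 340 to 651 in Abx_SCFA. Of these 12, 1 was at 0 in some library and 0 were at 0 in every library. The 12 oligodendrocyte markers summed to 14936 to 22580 CPM in H2O, 6707 to 14156 in Abx, 6347 to 24203 in SCFA and 11560 to 20541 in Abx_SCFA. SCFA rats 2 and 5 had the highest mean log2 CPM of the cortical list (5.18 and 5.99) and the lowest of the medium spiny neuron list (7.51 and 7.49). In bulk tissue, fewer cells of a type and less RNA per cell cannot be told apart. The rats given fatty acids all carry numbers in the 4-hundred series and the others numbers in the 2- and 3-hundred series, so the effect of the fatty acids and that of the series cannot be told apart either.

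None of the 61 genes passed the test between treatments after adjustment over all tested symbols. The quasi-likelihood test of edgeR called 0 of 61 at a Benjamini-Hochberg adjusted p below 0.05 in Abx vs H2O, SCFA vs H2O, Abx_SCFA vs H2O, Abx_SCFA vs Abx, Abx_SCFA vs SCFA, the interaction and the joint test of the 4 groups, beside 0% of all tested symbols in each. DESeq2 and limma-voom also called 0 of the 61 in each of these tests. Of all 12846 tested symbols DESeq2 called 1, 10, 1, 0, 3, 0 and 5 in the same order, and limma-voom 0 in each. The smallest adjusted p among the genes was 0.247 with edgeR, 0.0579 with DESeq2 and 0.345 with limma-voom, all in SCFA vs H2O.

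At an unadjusted p below 0.05, 11 genes passed in Abx vs H2O (8.79% of all tested symbols did), 8 of them higher in Abx (3.26%) and 3 lower (5.53%). In SCFA vs H2O 18 passed (13.8%), 11 higher (8.2%) and 7 lower (5.58%). In Abx_SCFA vs H2O 3 passed (5.56%), 1 higher (2.09%) and 2 lower (3.46%). As shares of the 61 genes these counts are 18%, 29.5% and 4.92%. In the same order DESeq2 gave 12, 20 and 3 genes (9.19%, 14.6% and 5.91% of all symbols) and limma-voom 11, 15 and 4 (8.57%, 12.6% and 5.57%).

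The other comparisons gave fewer genes than SCFA vs H2O. In Abx_SCFA vs Abx 1 gene had an unadjusted p below 0.05 (3.19%), with 0 higher (1.85%) and 1 lower (1.34%). In Abx_SCFA vs SCFA 5 did (6.78%), 0 higher (2.72%) and 5 lower (4.06%). In the interaction, the effect of antibiotics with fatty acids less their effect without, 10 did (7.85%), 0 positive (2.83%) and 10 negative (5.01%). The joint test of the 4 groups gave 8 (8.29%). Here DESeq2 gave 1, 6, 10 and 13 genes (3.41%, 7.49%, 8.66% and 10.9% of all symbols) and limma-voom 1, 3, 8 and 5 (3.24%, 6.46%, 7.01% and 6.99%). The median log2 fold change of the 61 genes was 0.04 in Abx vs H2O, 0.07 in SCFA vs H2O, -0.01 in Abx_SCFA vs H2O, -0.06 in Abx_SCFA vs Abx and -0.13 in Abx_SCFA vs SCFA, and the medians over all tested symbols were -0.008, -0.003, -0.007, -0.0003 and -0.01.

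**Figure D1:**
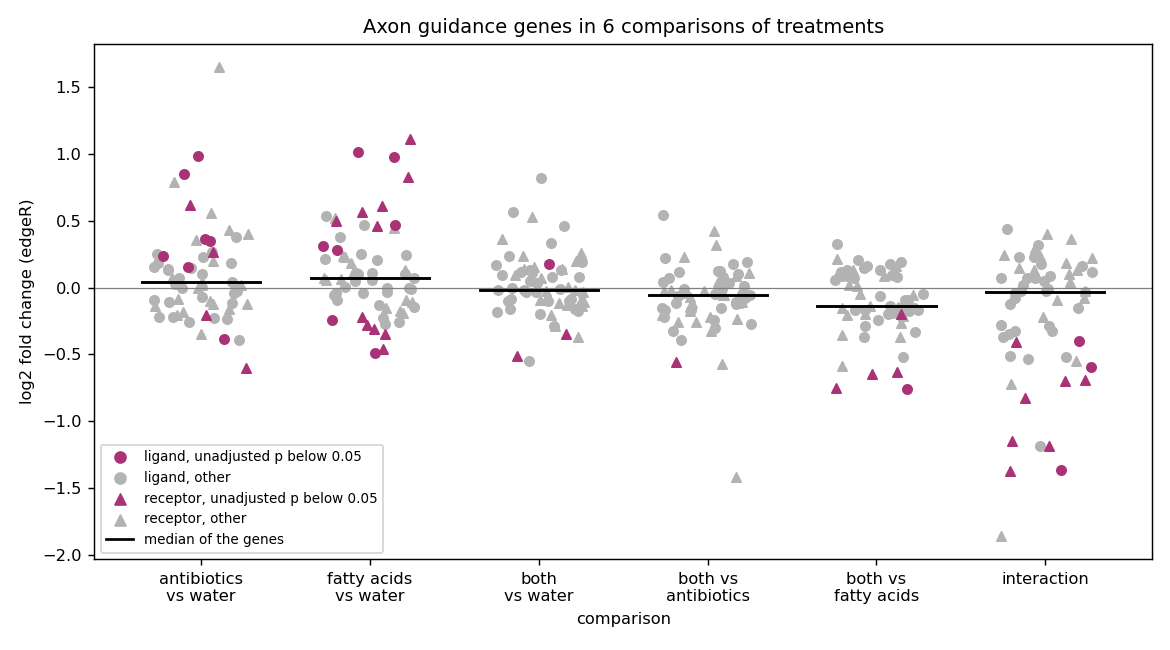
Log2 fold change (vertical) of each of the 61 genes in the comparisons between treatments and the interaction, with water for H2O and both for Abx_SCFA; circles are ligands, triangles receptors, colour marks an unadjusted edgeR p below 0.05 and bars are medians. Such genes are most frequent in SCFA vs H2O (18 of 61), and 0 were called after adjustment.

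Single libraries carried many of the largest values. SCFA rat 5 held the highest level of 15 of the 61 genes (24.6%, against 15.1% of all tested symbols), and SCFA rat 2 and H2O rat 5 that of 9 each (14.8%, against 9.56% and 3.99%). These counts moved with single libraries. In SCFA vs H2O 9 genes instead of 18 had an unadjusted p below 0.05 without SCFA rat 2 (9.98% of all symbols), 9 without SCFA rat 5 (9.22%), and 11 without H2O rat 2 (11.1%), rat 3 (10.4%) or rat 4 (11.1%). In Abx vs H2O 6 instead of 11 did without Abx rat 3 (4.84%) or H2O rat 4 (5.41%), and 7 without H2O rat 3 (6.56%). Leaving out other rats raised the counts. In SCFA vs H2O 23 genes passed without SCFA rat 1 (16.2%), 22 without SCFA rat 4 (17.5%) and 21 without H2O rat 5 (18.1%). Without H2O rat 5 the smallest edgeR adjusted p there was 0.0583. In Abx vs H2O 14 passed without Abx rat 2 (11%). In the interaction 14 instead of 10 passed without H2O rat 5 (11.1%), Abx rat 2 (9.89%), SCFA rat 1 (11%) or SCFA rat 4 (10.8%). Without SCFA rats 2 and 5 together, 3 genes instead of 18 had an unadjusted p below 0.05 in SCFA vs H2O (4.97% of all symbols), and 5 instead of 10 in the interaction (3.89%), while there were 9 instead of 3 in Abx_SCFA vs H2O (7.8%) and 15 instead of 11 in Abx vs H2O (12.5%). With the cortical marker score, the mean log2 CPM of that list, as a covariate, 0 genes did in SCFA vs H2O (2.72%) and 0 in the interaction (3.45%). In the same model 6 did in Abx vs H2O (8.35%) and 7 instead of 3 in Abx_SCFA vs H2O (7.57%). With the medium spiny neuron score instead, 2 did in SCFA vs H2O (2.61%) and 0 in the interaction (2.38%). There 13 did in Abx vs H2O (10.4%) and 9 in Abx_SCFA vs H2O (8.1%). With the oligodendrocyte score, 10 did in SCFA vs H2O (11.9%) and 3 in the interaction (4.98%). There 2 did in Abx vs H2O (2.69%) and 3 in Abx_SCFA vs H2O (4.36%). The scores themselves differed between the groups. In the order H2O, Abx, SCFA and Abx_SCFA, the mean cortical score was 2.01, 3.89, 4.23 and 3.85. The mean medium spiny neuron score was 8.49, 8.43, 8.07 and 8.49, and the mean oligodendrocyte score 9.07, 8.35, 8.78 and 8.65. These covariates thus overlap with treatment, and the fits cannot tell the 2 apart.

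**Figure D2:**
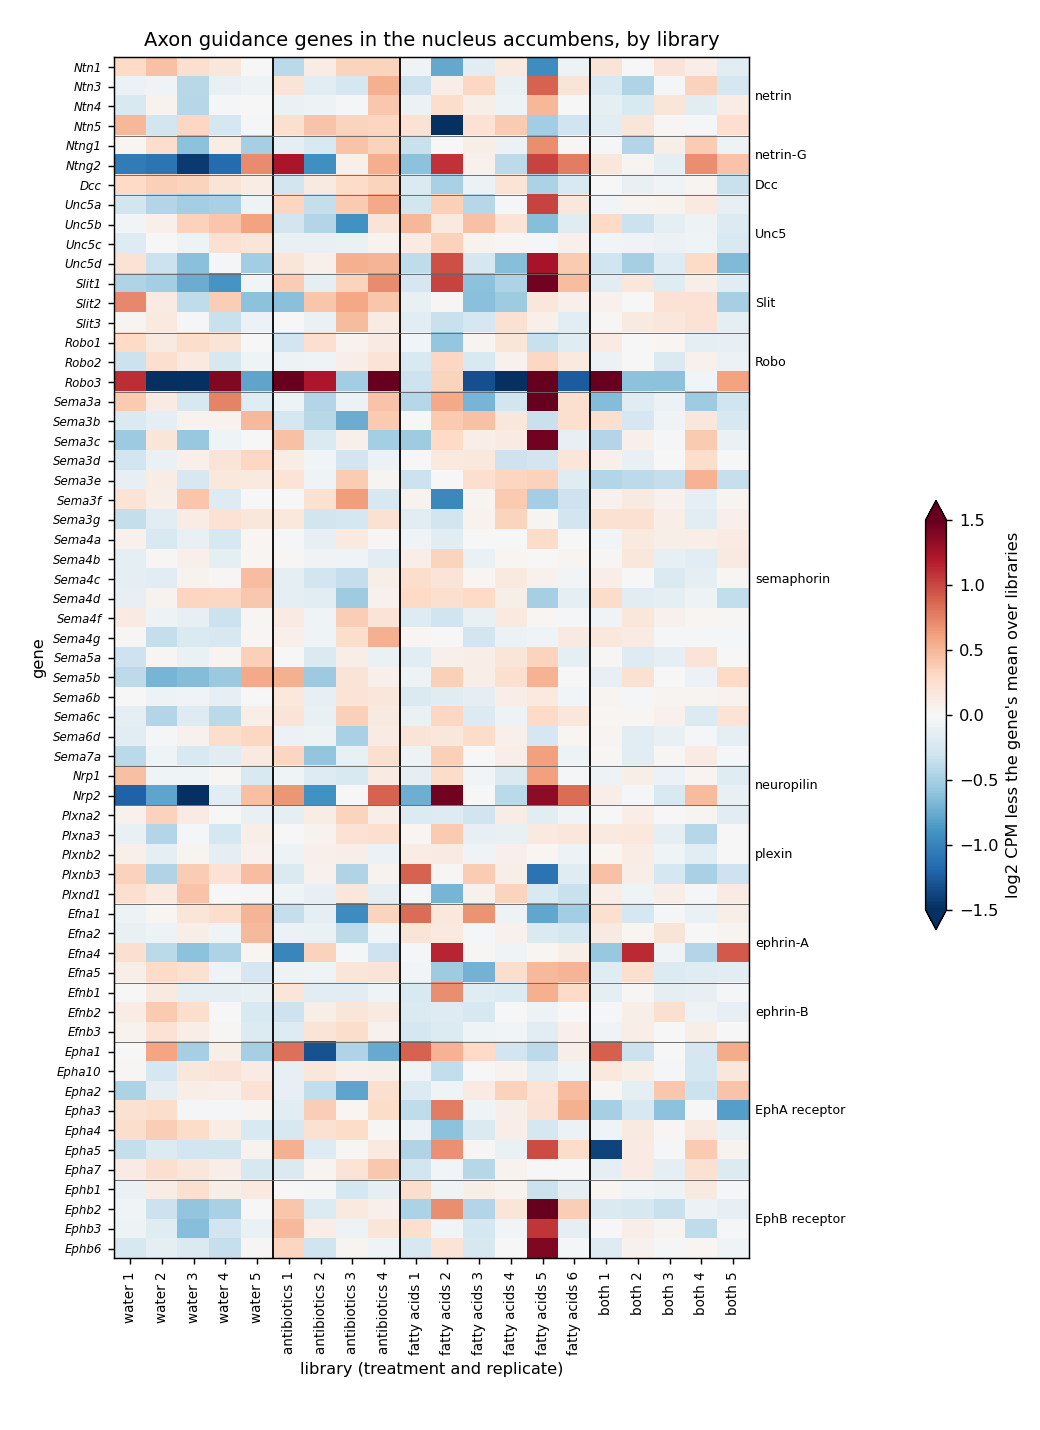
Level of each of the 61 genes (rows, by family) in each of the 20 libraries (columns, by treatment), as log2 CPM less the gene's mean, red where higher and blue where lower. Many of the strongest deviations sit in single libraries, such as SCFA rat 5, which holds the highest level of 15 genes.

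Dcc, the receptor through which Netrin-1 attracts axons, had the smallest p of the 61 genes in the joint test of the 4 groups. Its levels were 34.6, 36.1, 35.5, 32.2 and 30.4 CPM in H2O and 28.1, 26, 27.1, 29 and 22.4 CPM in Abx_SCFA. These groups did not overlap, which held for 1 of the 61 genes in this comparison and for 1.42% of all tested symbols. In Abx the levels were 23.3, 31, 34 and 35.7 CPM, and only Abx rat 1 lay below all H2O rats. In SCFA they were 24.3, 20.1, 26.4, 32.5, 20.3 and 24 CPM, with a median of 24.1. Of the SCFA rats only rat 4 lay within the H2O range, so Abx and SCFA each overlapped with H2O. The log2 fold change was -0.46 ± 0.12 (SE) in SCFA vs H2O (unadjusted p = 0.000855, edgeR adjusted p = 0.247) and -0.35 ± 0.12 in Abx_SCFA vs H2O (unadjusted p = 0.00972, edgeR adjusted p = 0.815). In Abx vs H2O it was -0.13 ± 0.13. With 1 library left out, the SCFA vs H2O value lay between -0.55 (without SCFA rat 4) and -0.40 (without SCFA rat 2). After the cortical score was added to the model, the SCFA value was -0.22 and the Abx_SCFA value -0.15.

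Ntn1, which encodes the secreted ligand of Dcc, varied over the libraries much as Dcc did. Among the other genes its log2 CPM was the most alike, with a Spearman correlation of 0.919 over the 20 libraries, followed by Robo1 (0.851) and Epha4 (0.815). These are descriptions of libraries that share treatments and tissue makeup. Ntn1 stood at 35.3, 38.9, 33.8, 32.4 and 28.6 CPM in H2O and at 21.7, 31.1, 36.3 and 36.4 CPM in Abx. It ran from 15.1 through a median of 26.5 to 31.8 CPM in SCFA and was 32.9, 28.9, 32.8, 30.9 and 25.7 CPM in Abx_SCFA. SCFA rats 2 and 5 were the lowest of all 20 libraries, and every group overlapped with H2O. On the log2 scale the fold change was -0.49 ± 0.17 in SCFA vs H2O (unadjusted p = 0.00836, edgeR adjusted p = 0.25), and -0.26 without SCFA rats 2 and 5.

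**Figure D3:**
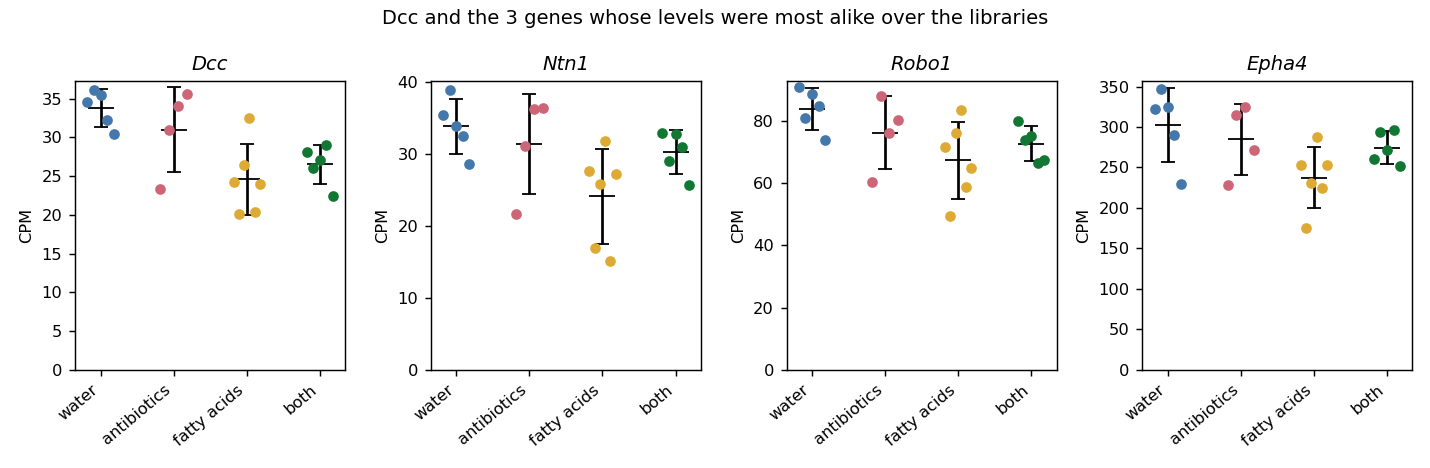
CPM of Dcc and of the 3 genes most alike to it over the libraries (Ntn1, Robo1 and Epha4); each point is 1 rat, shown by treatment with the group mean and SD. For Dcc all Abx_SCFA rats (22.4 to 29 CPM) lie below all H2O rats (30.4 to 36.1 CPM), while the groups overlap for the other genes.

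The Unc5 receptors, which mediate repulsion by netrins, differed in their values. Unc5a stood at 42.4, 37.7, 35.9, 36.5 and 48.4 CPM in H2O and 63.9, 40, 67.4 and 75.7 CPM in Abx, with Abx rat 2 inside the H2O range. It ran from 38.1 through a median of 53.8 to 103 CPM in SCFA and between 47 and 56.2 CPM in Abx_SCFA. Its log2 fold change was 0.62 ± 0.22 in Abx vs H2O (unadjusted p = 0.0126, edgeR adjusted p = 0.563), with an interaction of -0.83 ± 0.30 (edgeR adjusted p = 0.622). After the cortical score was added to the model, the Abx value was 0.11.

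Unc5b, also a netrin receptor, stood at 54.7, 59.4, 71.5, 75.3 and 85.5 CPM in H2O and 46.4, 41.6, 30 and 64.3 CPM in Abx, where Abx rat 4 overlapped with H2O. The log2 fold change was -0.60 ± 0.22 (unadjusted p = 0.0137, edgeR adjusted p = 0.563). Unc5d, which also binds Flrt adhesion proteins, had means of 4.38 ± 1.09 CPM (SD, n = 5) in H2O, 6.45 ± 1.02 (n = 4) in Abx, 6.69 ± 3.56 (n = 6) in SCFA and 4.34 ± 1.18 (n = 5) in Abx_SCFA. SCFA rats 2 and 5 were high, at 9.93 and 12 CPM, and the interaction was -1.19 ± 0.43 (unadjusted p = 0.0124, edgeR adjusted p = 0.622). Unc5c stood at 45.3, 45, 43.7, 44.5 and 39.8 CPM in Abx_SCFA and ran from 45.7 through a median of 48.7 to 59.2 CPM in SCFA. It was the 1 gene of 61 whose groups did not overlap in Abx_SCFA vs SCFA (0.56% of all symbols), with a log2 fold change of -0.20 ± 0.08 (unadjusted p = 0.0177, edgeR adjusted p = 0.732).

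The netrin-Gs are membrane-anchored relatives of the netrins that bind synaptic adhesion proteins and not Dcc. Ntng2 stood at 9.25, 8.96, 7.05, 8.56 and 31.1 CPM in H2O and 44.7, 10.1, 20.2 and 27.9 CPM in Abx. It ran from 12.4 through a median of 26.2 to 40.6 CPM in SCFA and between 17.4 and 31 CPM in Abx_SCFA. H2O rat 5 stood apart from the other H2O rats and within the range of the other groups, and it also had the highest cortical score of its group (4.03, against 0.803 to 2.23 in the others). For Ntng2 the log2 fold change was 1.02 ± 0.43 in SCFA vs H2O (unadjusted p = 0.03, edgeR adjusted p = 0.306) and 0.99 ± 0.47 in Abx vs H2O (unadjusted p = 0.0491, edgeR adjusted p = 0.566).

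Among the Slits, ligands that repel axons through Robo receptors, Slit1 had the lowest p in SCFA vs H2O. It stood at 41.1, 39.3, 33.5, 30.5 and 54.3 CPM in H2O, 73, 50.5, 70.6 and 91.5 CPM in Abx and 50.3, 63.3, 49.3, 59.8 and 50.2 CPM in Abx_SCFA. In SCFA it ran from 36.5 through a median of 62.4 to 153 CPM, with 113 CPM in rat 2 and 153 CPM in rat 5. H2O rat 5 overlapped with Abx and Abx_SCFA, and the other H2O rats lay below both. The log2 fold change was 0.98 ± 0.31 in SCFA vs H2O (unadjusted p = 0.00565, edgeR adjusted p = 0.247) and 0.85 ± 0.34 in Abx vs H2O, with an interaction of -1.37 ± 0.46 (edgeR adjusted p = 0.622). After the cortical score was added to the model, the SCFA value was -0.08, and without SCFA rats 2 and 5 it was 0.35.

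Slit2, another Robo ligand, lay between 17.8 and 45 CPM in H2O, between 17.7 and 40.8 in Abx, between 17.7 and 30.7 in SCFA and between 19.3 and 31.7 in Abx_SCFA, so that all groups overlapped. The receptor Robo1 stood at 90.9, 81, 88.9, 84.8 and 73.9 CPM in H2O, 60.4, 88, 76.3 and 80.5 CPM in Abx and 80.2, 74, 75.1, 66.5 and 67.6 CPM in Abx_SCFA. In SCFA it ran from 49.4 through a median of 68.4 to 83.7 CPM, with rats 2 and 5 the lowest libraries of the 20. On the log2 scale the fold change was -0.31 ± 0.11 in SCFA vs H2O (unadjusted p = 0.0108, edgeR adjusted p = 0.252) and 0.004 after the cortical score was added to the model. Robo2 had means of 124 ± 21 CPM (SD, n = 5) in H2O, 131 ± 12.4 (n = 4) in Abx, 134 ± 22.3 (n = 6) in SCFA and 121 ± 8.97 (n = 5) in Abx_SCFA. Robo3, a divergent receptor known from axons crossing the midline, was near the detection limit, from 0.0503 CPM, which is 1 count, to 5.17 CPM, where 3 counts correspond to 0.115 to 0.171 CPM.

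The 19 semaphorins, a family of mostly repellent cues, had log2 fold changes from -0.39 to 0.38 in Abx vs H2O, from -0.27 to 0.54 in SCFA vs H2O and from -0.55 to 0.33 in Abx_SCFA vs H2O. Of them 5 had an unadjusted p below 0.05 in Abx vs H2O (8.79% of all symbols), 3 in SCFA vs H2O (13.8%) and 1 in Abx_SCFA vs H2O (5.56%). Sema4g, a transmembrane semaphorin, had the smallest p of the 61 genes in Abx vs H2O. It stood at 45.6, 34.9, 38.5, 38.1 and 45.8 CPM in H2O and 47.3, 42.8, 53.7 and 65.2 CPM in Abx, where Abx rat 2 lay within the H2O range. The log2 fold change was 0.36 ± 0.11 (unadjusted p = 0.00286, edgeR adjusted p = 0.563). As a difference of mean log2 CPM it was 0.17 in the 2-hundred and 0.54 in the 3-hundred number series. Of the 61 genes 35 had the same direction in both series, and the share over all symbols was not computed. Dcc (-0.40 and 0.09) and Ntn1 (-0.51 and 0.20) were among the genes whose direction differed. Sema6c, also a transmembrane semaphorin, stood at 20, 16.2, 19.2, 16.7 and 23.6 CPM in H2O. In Abx it was 25.1, 20.3, 28.1 and 24.1 CPM, with overlap. Its log2 fold change was 0.35 ± 0.13 (unadjusted p = 0.0117, edgeR adjusted p = 0.563).

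Sema4a, a class 4 semaphorin also studied in immune cells, had means of 59.9 ± 6.04 CPM (SD, n = 5) in H2O and 67.7 ± 3.29 (n = 5) in Abx_SCFA, a log2 fold change of 0.18 ± 0.08 (unadjusted p = 0.0344, edgeR adjusted p = 0.815). Sema3a, a secreted ligand of Nrp1, lay between 3.58 and 7.12 CPM in H2O, between 3.12 and 5.7 in Abx, between 2.62 and 13.4 in SCFA and between 2.7 and 4 in Abx_SCFA. Its highest level was in SCFA rat 5. Sema7a, a membrane-anchored semaphorin that binds integrins, lay between 54.5 and 79 CPM in H2O, between 47.9 and 89.8 in Abx, between 68.3 and 111 in SCFA and between 64.1 and 78.5 in Abx_SCFA. Its log2 fold change was 0.31 ± 0.15 in SCFA vs H2O (unadjusted p = 0.0473, edgeR adjusted p = 0.356), and -0.13 after the cortical score was added to the model.

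Nrp2, the neuropilin that binds Sema3f, stood at 3.76, 5.03, 2.87, 7.75 and 11.9 CPM in H2O, 13.8, 4.64, 8.72 and 16.2 CPM in Abx and 9.34, 8.58, 7.45, 12.1 and 8.07 CPM in Abx_SCFA. In SCFA it ran from 5.27 through a median of 12.1 to 23.8 CPM, with its 2 highest levels in rats 2 and 5, and all groups overlapped. Its log2 fold change was 1.11 ± 0.43 in SCFA vs H2O (unadjusted p = 0.0173, edgeR adjusted p = 0.27), -0.39 after the cortical score was added to the model and 0.51 without those rats. Nrp1, the receptor of Sema3a, ran from 20.6 to 37.1 CPM over all libraries, with a log2 fold change of 0.07 ± 0.14 in SCFA vs H2O. Plxna2, a plexin that binds class 6 semaphorins, had means of 296 ± 35.8 CPM (SD, n = 5) in H2O, 300.9 ± 40.2 (n = 4) in Abx, 255 ± 26.1 (n = 6) in SCFA and 278 ± 18.3 (n = 5) in Abx_SCFA. Plxnd1, the receptor of Sema3e, had means of 112 ± 14.6 CPM (SD, n = 5) in H2O, 97.1 ± 10.2 (n = 4) in Abx, 92.2 ± 22.1 (n = 6) in SCFA and 103 ± 6.03 (n = 5) in Abx_SCFA. The log2 fold changes in SCFA vs H2O were -0.22 ± 0.09 for Plxna2 and -0.28 ± 0.13 for Plxnd1 (edgeR adjusted p = 0.287 and 0.349).

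In the ephrin family, Epha3, a receptor of the ephrin-As, stood lowest in Abx_SCFA. It was 4.86, 5.81, 4.47, 6.85 and 3.86 CPM there, against 8.05, 8.26, 6.78, 6.71 and 7.04 CPM in H2O, 6.16, 8.85, 7.01 and 8.28 CPM in Abx and from 5.27 through a median of 7.62 to 11.6 CPM in SCFA. Abx_SCFA rat 4 overlapped with every other group and rat 2 with SCFA. The log2 fold change was -0.65 ± 0.18 in Abx_SCFA vs SCFA (unadjusted p = 0.00166, edgeR adjusted p = 0.732), -0.52 ± 0.19 in Abx_SCFA vs H2O (edgeR adjusted p = 0.815) and -0.55 ± 0.20 in Abx_SCFA vs Abx (edgeR adjusted p = 0.999). Over the alternatives run, the value in Abx_SCFA vs SCFA lay between -0.77 and -0.49.

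Epha4, which binds both ephrin classes, stood at 322, 347, 324, 291 and 229 CPM in H2O and 228, 314, 324 and 272 CPM in Abx. It ran from 175 through a median of 242 to 287 CPM in SCFA and between 251 and 296 CPM in Abx_SCFA. SCFA rat 2 was the lowest of the 20 libraries and all groups overlapped. Its log2 fold change in SCFA vs H2O was -0.35 ± 0.12 (unadjusted p = 0.00709, edgeR adjusted p = 0.248) and -0.06 after the cortical score was added to the model. Epha5, a receptor of the ephrin-As, lay between 55.7 and 73.7 CPM in H2O, between 62 and 103 in Abx, between 52 and 139.7 in SCFA and between 27.2 and 93.7 in Abx_SCFA, with Abx_SCFA rat 1 below all other libraries.

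Ephb2, an EphB receptor known to associate with NMDA receptors at synapses, stood at 3.76, 3.12, 2.59, 2.79 and 3.92 CPM in H2O, 5.21, 3.41, 4.33 and 4.12 CPM in Abx and 3.37, 3.31, 3.11, 3.67 and 3.59 CPM in Abx_SCFA. In SCFA it ran from 2.82 through a median of 4.75 to 12.7 CPM, with rats 2 and 5 the highest. On the log2 scale the fold change was 0.82 ± 0.29 in SCFA vs H2O (unadjusted p = 0.0108, edgeR adjusted p = 0.252) and 0.23 without SCFA rats 2 and 5. Ephb3 stood at 14.8, 13.8, 10.1, 12.8 and 14.6 CPM in H2O and 21.9, 16.8, 14.9 and 17.7 CPM in Abx, the 1 gene of 61 whose groups did not overlap in Abx vs H2O (2.46% of all symbols), with a log2 fold change of 0.43 ± 0.21 (unadjusted p = 0.0561, edgeR adjusted p = 0.574). Ephb1 had means of 117 ± 9.62 CPM (SD, n = 5) in H2O, 101 ± 8.28 (n = 4) in Abx, 108 ± 15.2 (n = 6) in SCFA and 109.6 ± 6.16 (n = 5) in Abx_SCFA.

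Among the ephrin ligands, Efna2 stood at 7.03, 6.95, 5.7 and 7.25 CPM in Abx and 8.18, 7.62, 8.52, 7.44 and 7.65 CPM in Abx_SCFA. It was the 1 gene of 61 without overlap in Abx_SCFA vs Abx (1.2% of all symbols), with a log2 fold change of 0.22 ± 0.13 (unadjusted p = 0.0932, edgeR adjusted p = 0.999). In SCFA vs H2O 0 of the 61 genes had groups without overlap (0.537% of all symbols). Efna5, a ligand of EphA receptors, had means of 4.61 ± 0.668 CPM (SD, n = 5) in H2O and 4.6 ± 1.53 (n = 6) in SCFA. Efnb3, a transmembrane ephrin, had means of 177 ± 18.2 CPM (SD, n = 5) in H2O and 159.5 ± 13.8 (n = 6) in SCFA, a log2 fold change of -0.15 ± 0.08 (edgeR adjusted p = 0.426).

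Within the treatment groups, 34 of the 61 genes followed at least 1 of 3 tissue-marker scores (26.2% of all tested symbols did), and 27 were called on none. A score is the mean log2 CPM of a marker list, and none of the 61 genes is on a list. The slope of each gene on each score, in a model with the 4 groups over all tested symbols, was added after the data had been seen. On the cortical excitatory neuron score 20 of 61 slopes were called at an edgeR adjusted p below 0.05 (14.5% of all symbols), 15 of them positive (9.81%) and 5 negative (4.73%). On the medium spiny neuron score 20 were called (13.3%), 7 positive (5.29%) and 13 negative (8.03%). On the oligodendrocyte score 12 were called (8.54%), 7 positive (5.81%) and 5 negative (2.73%). The 5 negative ones were Ephb6, Ephb2, Sema3c, Sema4a and Sema3a. None of them was called without SCFA rat 5 (edgeR adjusted p 0.405 to 0.884), so these calls rest on that library.

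Of the genes that rose with the cortical score, Ntng2 had a slope of 0.65 ± 0.06 log2 CPM per unit of score (edgeR adjusted p = 3.48e-07) and Nrp2 one of 0.66 ± 0.07 (edgeR adjusted p = 5.21e-07). Slit1 (0.41 ± 0.07), Sema7a (0.20 ± 0.03), Unc5a (0.26 ± 0.05), Sema5b (0.26 ± 0.05), Epha5 (0.32 ± 0.07) and Ephb6 (0.27 ± 0.06) also rose with it. Robo1 (-0.15 ± 0.03) and Sema3f (-0.21 ± 0.05) fell as it rose. These 10 genes were called in all 20 fits that left out 1 library, but the slope of Ephb6 was 0.13 without SCFA rat 5 and that of Sema5b 0.17 without H2O rat 5. Without SCFA rat 5, 12 genes were called. For slope fits without 1 library, here and below, the share of all symbols called was not recorded. Without SCFA rats 2 and 5 together 6 genes were called (4.41% of all symbols), namely Ntng2, Nrp2, Sema7a, Slit1, Robo1 and Sema5b.

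**Figure D4:**
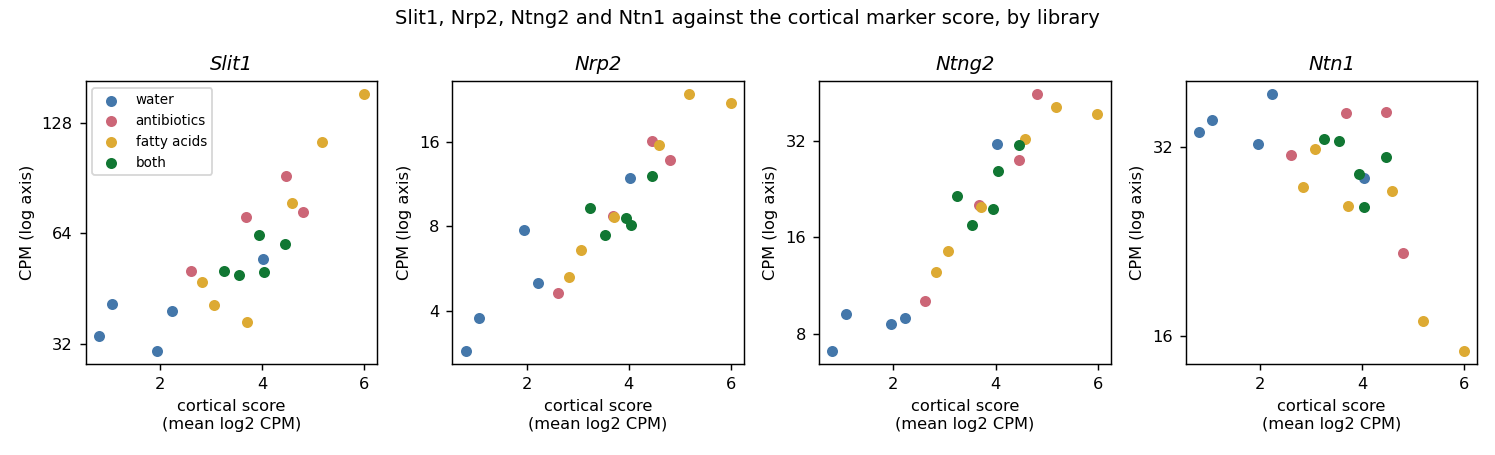
CPM of Slit1, Nrp2, Ntng2 and Ntn1 against the mean log2 CPM of the cortical markers; each point is 1 of the 20 libraries, coloured by treatment. The 2 SCFA libraries with the highest scores (5.18 and 5.99) hold the highest levels of Slit1 and Nrp2 and the lowest of Ntn1.

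With the medium spiny neuron score rose Ntn1 (0.88 ± 0.14, edgeR adjusted p = 0.000254), Sema3f (0.94 ± 0.15), Plxnd1 (0.59 ± 0.12) and Epha4 (0.53 ± 0.12). Slit1 (-1.42 ± 0.25), Nrp2 (-1.79 ± 0.40) and Efnb1 (-0.66 ± 0.13) fell as it rose, and all of these were called in 20 of 20 fits that left out 1 library. Dcc rose with it too, at 0.52 ± 0.12 (edgeR adjusted p = 0.00605), in 19 of 20 fits, and its slope was 0.42 without SCFA rat 4 (edgeR adjusted p = 0.0575). The cortical and the medium spiny neuron score were themselves negatively related within groups (Pearson r = -0.68 over the 20 libraries, as a description), so their slopes are not separate results. Of the 61 genes 14 were called on both (9.13% of all symbols), in opposite directions, as were 100% of all 1173 symbols called on both. Without SCFA rat 4, 13 genes were called on the medium spiny neuron score, and without SCFA rat 5 12. Without SCFA rats 2 and 5 together 5 were (3.7% of all symbols), of which Epha4 and Sema3f were called with all libraries and Plxna2, Sema6d and Slit3 were not. Ntn1, Plxnd1, Slit1, Nrp2, Efnb1 and Dcc were not called without those rats. With the 3 scores in 1 model, 2 genes were called on the cortical score (Ntng2 and Nrp2, 2.02% of all symbols), 2 on the medium spiny neuron score (Ntn1 and Sema3f, 2.15%) and 16 on the oligodendrocyte score (8.38%).

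**Figure D5:**
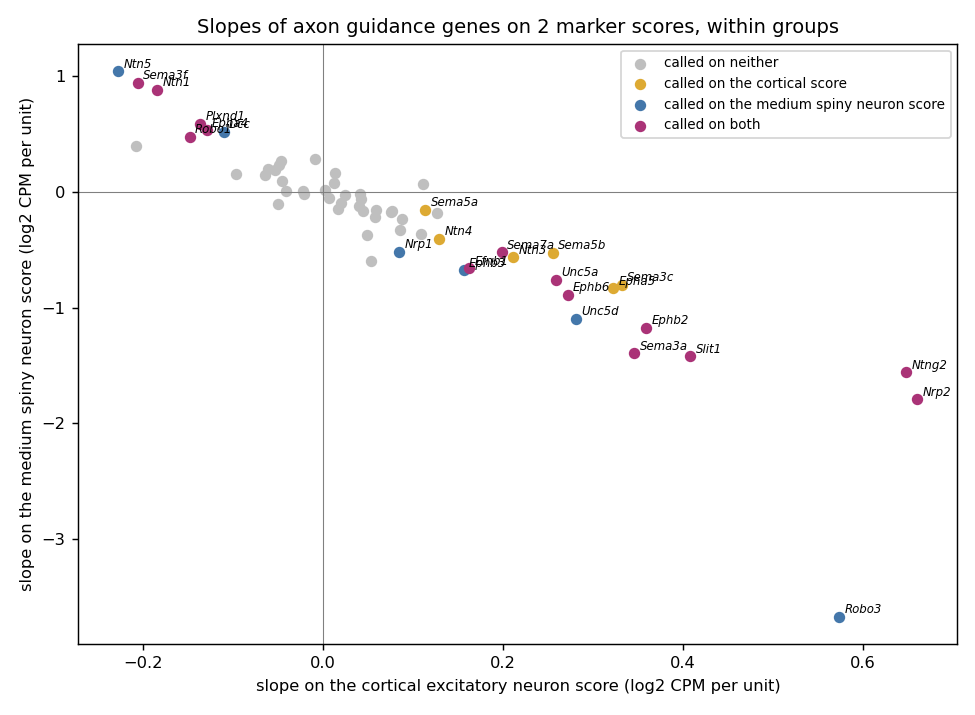
Slope of each of the 61 genes on the cortical excitatory neuron score (horizontal) and on the medium spiny neuron score (vertical), both in log2 CPM per unit of score within treatment groups, coloured by the score on which it was called. Ntng2 and Nrp2 have the steepest called slopes on the cortical score (0.65 ± 0.06 and 0.66 ± 0.07), and genes with positive slopes on one score mostly have negative slopes on the other; the scores themselves had a Pearson r of -0.68 within groups.

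With the oligodendrocyte score rose Sema4d (0.52 ± 0.05, edgeR adjusted p = 1.84e-07), a semaphorin made by oligodendrocytes, Unc5b (0.70 ± 0.07), Sema6d (0.35 ± 0.05), Efna1 (0.85 ± 0.12) and Sema3b (0.51 ± 0.11), all in 20 of 20 fits. Plxnb3, a plexin of the oligodendrocyte lineage, had a slope of 0.80 ± 0.14 and an edgeR adjusted p of 0.0562 without SCFA rat 5. Without that rat, 5 genes were called, and without SCFA rats 2 and 5 together also 5 (4.08% of all symbols). Ephb1, called with all libraries, was called in neither of these fits (edgeR adjusted p = 0.119 without SCFA rat 5). Unc5b, Sema4d and Ephb1 (slope 0.24 ± 0.05) are the 3 genes with lower levels and an unadjusted p below 0.05 in Abx vs H2O, where the oligodendrocyte markers summed to 6707 to 14156 CPM in Abx and 14936 to 22580 in H2O. With the oligodendrocyte score as a covariate 2 of the 61 genes had an unadjusted p below 0.05 in that comparison (2.69% of all symbols). The part of the marker levels in the differences between treatments was not tested beyond these covariate fits.

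Promoter sequences are shown for 3 genes that rose with the cortical score and 1 that fell, to set genes that moved together side by side. RefSeq promoters of the build GRCr8, which differs from the build of the counts, matched 48 of the 61 genes. Each run is the 250 bases before the annotated start, in the direction of the gene, with the letters GGGCGG or their reverse complement CCGCCC (a GC box) in capitals. The regions are chr3:32943822-32944071 (minus strand) for Ntng2, chr9:71617004-71617253 (plus strand) for Nrp2, chr8:67244068-67244317 (plus strand) for Sema7a and chr4:150715188-150715437 (minus strand) for Plxnd1.
Ntng2: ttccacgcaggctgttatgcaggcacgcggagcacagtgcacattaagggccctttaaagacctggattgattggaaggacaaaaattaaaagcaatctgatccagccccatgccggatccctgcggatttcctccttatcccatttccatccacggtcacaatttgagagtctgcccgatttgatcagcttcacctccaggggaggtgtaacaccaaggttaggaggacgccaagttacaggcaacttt
Nrp2: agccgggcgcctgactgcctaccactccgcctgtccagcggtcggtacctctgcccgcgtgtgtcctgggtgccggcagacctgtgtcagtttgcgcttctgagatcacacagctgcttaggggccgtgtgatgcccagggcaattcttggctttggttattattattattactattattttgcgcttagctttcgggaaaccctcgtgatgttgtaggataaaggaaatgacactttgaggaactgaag
Sema7a: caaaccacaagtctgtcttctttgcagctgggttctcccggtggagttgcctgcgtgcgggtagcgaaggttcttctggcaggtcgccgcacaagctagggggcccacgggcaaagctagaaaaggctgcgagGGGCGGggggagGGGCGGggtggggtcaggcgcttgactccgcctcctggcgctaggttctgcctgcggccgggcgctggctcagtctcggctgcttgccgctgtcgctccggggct
Plxnd1: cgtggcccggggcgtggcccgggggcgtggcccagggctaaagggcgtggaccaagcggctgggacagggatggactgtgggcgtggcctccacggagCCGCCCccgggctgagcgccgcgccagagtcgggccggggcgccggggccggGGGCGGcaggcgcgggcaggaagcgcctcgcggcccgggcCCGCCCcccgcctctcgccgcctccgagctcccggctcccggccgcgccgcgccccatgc
Sema7a holds 2 GC boxes, 117 and 105 bases before its start, Plxnd1 holds 3, and Ntng2 and Nrp2 hold 0. A GC box was found in 24 of the 48 promoters (50%) and in 30.5% of all 33469 promoters of the table, with a median GC content of 61% and 51.2%. It was found in 3 of the 12 promoters matched to the 15 genes that rose with the cortical score, and in 1 of the 2 matched to the 5 that fell. For 1 gene that matched more than 1 promoter the first was used, whereas the 33469 include every promoter of a gene. The letters CAGATG or CATCTG, a form of E-box, were in 3 of the 48 (6.25%), in 14% of all promoters and in 0 of the 12. The 2 motifs were searched on both strands and counted separately, and a match of letters is not a binding site.

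Of the wider guidance pathway, 48 of 50 listed signal transducers and 26 of 32 listed co-receptors and adhesion partners were in the table, and 0 of either were called by edgeR in any comparison. At an unadjusted p below 0.05, 7 transducers and 6 co-receptors were higher in SCFA vs H2O (8.2% of all symbols) and 1 and 2 lower (5.58%). In Abx vs H2O 2 transducers and 2 co-receptors were higher (3.26%) and 2 and 1 lower (5.53%), and in Abx_SCFA vs H2O 1 and 0 were higher (2.09%) and 1 and 2 lower (3.46%). In SCFA vs H2O Farp1, which acts downstream of plexins, had a log2 fold change of 0.62 ± 0.18 (edgeR adjusted p = 0.247) and Rtn4r, the Nogo receptor, 2.85 ± 0.90 (edgeR adjusted p = 0.247). On the cortical score 13 transducers and 7 co-receptors rose (9.81% of all symbols), and 3 and 1 fell (4.73%). Rtn4r had a slope of 1.39 ± 0.07 (edgeR adjusted p = 4.78e-11) and Mical2, an actin-oxidising effector of semaphorin signalling, 0.46 ± 0.05 (edgeR adjusted p = 2.36e-06). On the medium spiny neuron score 4 transducers and 1 co-receptor rose (5.29%) and 11 and 6 fell (8.03%), with Ngef, which acts downstream of EphA receptors, at 0.57 ± 0.08. On the oligodendrocyte score 4 transducers and 2 co-receptors rose (5.81%) and 3 and 1 fell (2.73%), with Cntn2, an axonal and oligodendroglial adhesion protein, at 0.72 ± 0.06.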

How the data were processed

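Gene counts of 20 libraries, as deposited by the authors in 1 table of raw counts per symbol, were used unchanged, and all columns matched a labelled rat. The rat build Rnor_6.0 and the tools STAR 2.4.0, FastQC 0.11.6 and limma are listed, per the submitters' processing notes. How reads were assigned to genes (tool, annotation, strand) is not given in the sources used here, so overlapping or antisense genes cannot be told apart. Per the labels' protocols, polyA RNA was extracted with an RNeasy kit and made into cDNA with a SMARTer kit. Symbols kept by filterByExpr (minimum count 10, minimum total 15) were scaled by TMM and fitted in R 4.3.3 with edgeR 4.0.16 (quasi-likelihood test) in 1 model of the 4 treatment groups over 20 libraries, with 16 residual degrees of freedom. P-values were adjusted by Benjamini-Hochberg over all 12846 tested symbols. DESeq2 1.42.0 and limma 3.58.1 (voom) were alternatives, and the scripts were tested on simulated data. CPM are TMM-scaled, with a prior count of 2 on the log2 scale. The SE of a fold change or slope was derived from the edgeR test, as its absolute value divided by the square root of F.

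The genes and lists were chosen with earlier results of these data known. Genes described singly were the 3 with the smallest unadjusted p in each test and a set of family members whose levels were always given. Of that set, Sema6a and Plxnc1 were not found under these symbols among the deposited counts, so the family counts cover only symbols that were. Ephb3, Unc5b and Ntng2 and the genes named for their slopes were named after their values had been seen. Over 190 pairs of libraries the chi-square per gene was 6.57 to 116, so none differed by as little as sampling noise. P-values measure the spread between rats, whose cage mates are not identified. Promoters are of the build GRCr8, and no coordinates of the counts' build were used.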

Additional observations from a re-analysis of the deposited data

Results flagged for a closer look

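Dixon's test was applied to 104 groups, namely 26 genes in 4 treatment groups. The genes were those with the 3 smallest unadjusted p in each test and those whose levels were always given. In 7 groups the gap of a rat to the nearest other rat, as a share of the group's range, was above the 95% critical value. Chance gives about 1 in 20 such groups. Efna5 was 5.17 CPM in Abx_SCFA rat 2 and 3.79 to 3.94 CPM in the others (share 0.892). In SCFA rat 5, Ephb2 was 12.7 CPM against 2.82 to 6.33 CPM in the others (0.645), Sema3a was 13.4 CPM against 2.62 to 6.28 CPM (0.662) and Sema4a was 77.5 CPM against 56.9 to 64.1 CPM (0.65). Unc5c was 48.3 CPM in Abx rat 4 and 43.0 to 43.5 CPM in the others (0.911). It was 59.2 CPM in SCFA rat 2 and 45.7 to 50.6 CPM in the others (0.635), and 39.8 CPM in Abx_SCFA rat 5 and 43.7 to 45.3 CPM in the others (0.719). Genes named outside these rules were not tested, so the list is not complete for all genes named here. Of these, Ntng2 (31.1 CPM against 7.05 to 9.25) and Sema5b (38.9 against 16.2 to 20.1) stood apart in H2O rat 5. Ephb3 (32.9 CPM against 13.1 to 18.6) and Ephb6 (119 against 38.2 to 52.3) stood apart in SCFA rat 5.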

How the results depend on the processing

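None of the 61 genes was called in any comparison under any alternative. Over all tested symbols the most called in any of these fits was 10, with DESeq2 in SCFA vs H2O. The median log2 fold change of the 61 genes depended on the model. With the cortical score as a covariate it was -0.07 in Abx vs H2O and -0.07 in SCFA vs H2O. In Abx_SCFA vs SCFA it was 0.02 with the medium spiny neuron score as a covariate and -0.006 without SCFA rats 2 and 5. Of 705 recomputed log2 fold changes 697 kept their direction and 8 reversed, all with the cortical score as a covariate. In SCFA vs H2O the reversed values were Slit1 (-0.0808), Unc5d (-0.14), Robo1 (0.00388), Ephb2 (-0.0939), Sema7a (-0.13), Nrp2 (-0.39) and Plxnd1 (0.0143). In the interaction it was Nrp2 (0.28). The 705 cover only the 3 genes with the smallest p in each comparison and the always-given genes with an unadjusted p below 0.05. That choice made a reversal unlikely from the outset, above all in fits without 1 library. Slope counts moved with single libraries. Leaving out 1 library gave 12 to 23 genes on the cortical score, 12 to 21 on the medium spiny neuron score and 5 to 16 on the oligodendrocyte score, with the lowest counts without SCFA rat 5. Without SCFA rats 2 and 5 the counts were 6, 5 and 5, and with the 3 scores in 1 model 2 on each neuron score and 16 on the oligodendrocyte score. DESeq2 called 24, 20 and 17 (16.8%, 15.4% and 11.6% of all symbols) and limma-voom 21, 19 and 13 (14.9%, 13.7% and 9.17%). In the model with 3 scores the slope of Sema3a on the cortical score was -0.0374 and that of Ntng2 on the medium spiny neuron score 0.16, and without SCFA rats 2 and 5 that of Unc5d on the medium spiny neuron score was 0.0196, each reversed; the cause was not tested. The slopes with all their alternatives, the medium spiny neuron and oligodendrocyte covariates and the counts of groups without overlap were chosen after seeing the data. No paired analysis was possible because each rat number belongs to 1 rat and the groups share none.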
